A study of Mus musculus with 10 samples.

Results

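The mouse genome holds 81 autosomal protein-coding genes of cytochrome P450 families 1 to 4, found here as the genes whose symbols begin with Cyp1, Cyp2, Cyp3 or Cyp4 and then a letter, out of 20807 autosomal protein-coding genes in the mm10 annotation. They comprised 3 Cyp1, 49 Cyp2, 9 Cyp3 and 20 Cyp4 genes. As tandem copies, 71 of them lay in 8 gene clusters (neighbouring starts less than 500 kb apart), and 10 stood alone. The rule uses gene symbols only.

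To address what Arid1a does to hepatocyte chromatin, the study profiled AB17 cells, primary hepatocytes from C57BL/6 mice with a floxed Arid1a (Arid1a fl/fl), made to grow in culture by the SV40 large T antigen and an activated H-Ras. The Arid1a WT cells had been given the control adenovirus Ad-GFP, and the Arid1a KO cells (Arid1a-/-) an adenovirus with Cre recombinase, Ad-Cre. ChIP-seq peak summits were listed for H3K9me3, which marks constitutive heterochromatin, and H3K27me3, which Polycomb complexes lay down, in WT and KO cells, and for Arid1a, Brg1, Ctcf and Rad21 in WT cells only. Each group was 1 library of 1 immortalized, Ras-transformed line, so no difference between WT and KO below has a replicate check or a p-value, and an effect of genotype cannot be told apart from one of the library, of the depth or of the virus given.

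P450 enzymes are heme proteins of the endoplasmic reticulum that insert oxygen into their substrates with electrons from the reductase Por. Families 1 to 3 are known above all for the oxidation of drugs, toxins and steroids, and family 4 for the oxidation of fatty acids and eicosanoids at the end of the chain. The liver is their main site, where nuclear receptors such as Car, Pxr and Ppara, the aryl hydrocarbon receptor Ahr and the liver factor Hnf4a are known to control them. Arid1a and Brg1 belong to the SWI/SNF remodelling complex, Ctcf binds loop anchors and domain borders, and Rad21 is a subunit of cohesin.

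Each summit carried a −log10 q-value from the peak caller, which ranks peaks inside its own library and is called strength below. The autosomal lists held between 70157 (Arid1a) and 141657 (WT H3K9me3) summits, with median strengths between 2.47 (KO H3K9me3) and 4.02 (Ctcf), and the read depth behind them is unknown. Upon Arid1a deficiency the H3K9me3 list was slightly shorter (131430 summits in KO) and the H3K27me3 list clearly shorter (85640 in KO against 108777 in WT). As these are pooled cells, fewer cells carrying a mark and less of the mark per cell cannot be told apart. The loss of Arid1a itself was not measured in these lists, and Arid1a and Brg1 were not profiled in KO cells. The lists hold no expression values, and the hepatocyte label could be looked at only through gene starts. Of 15 hepatocyte marker genes, only Alb, Cps1 and Serpina1a had no summit of any list within 2 kb of the start. This state was seen in 16.9% of all genes. H3K27me3 was listed at 4 of 15 in WT (26.7%, against 24.1% of all genes) and 3 of 15 in KO (20%, against 20.6%).

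The promoters of these genes differ from those of most genes in their sequence. Unless stated otherwise, the start of a gene is its outermost annotated start, which need not be the one used in these cells. In the 300 bases from 250 before to 50 after the start, the median number of CG dinucleotides was 2 in P450 genes against 12 in all genes, and 75 of 81 members (92.6%) had fewer than 10, against 45.5% of all genes. TATAAA, the letters of the core promoter box bound by Tbp, occurred on either strand in 29 of 81 (35.8%) against 12.7% of all genes. Matches were counted anywhere in the 300 bases, so a match need not be a working box. The first base lay at -30 from the start in Cyp2a22 and Cyp2a12, but at -124 in Cyp3a11 and -122 in Cyp3a41a. The median GC content was 47.3% in members against 55.3% in all genes, and its part in the matches was not tested. CAAAGTCCA, a motif of Hnf4, occurred in 10 (12.3%) against 0.433%, and all 10 were Cyp2c or Cyp3a genes. These 10 include the near-identical copies Cyp3a41a and Cyp3a41b, and Cyp2c40 and Cyp2c69, so they are not independent. TNGCGTG, the core of the dioxin response element bound by Ahr, occurred in 2 (Cyp1a1 and Cyp2c68), or 2.47% against 5.92%. The 3 motifs did not overlap each other in these windows, and a match of letters is not evidence of binding. Shown here are the 250 bases before the start, from the mm10 reference and written 5′ to 3′ on the strand of the gene, of a Cyp3a gene without any summit at its start, of a Cyp3a copy with an almost identical neighbour, of the Cyp2d gene with the most H3K27me3 summits at its start, and of Cyp1a1 and Cyp1b1, the 2 members with the highest Ctcf summits at their starts. Capitals mark matches to the 3 motifs on either strand.
Cyp3a11, chr5:145879965-145880214, reverse strand: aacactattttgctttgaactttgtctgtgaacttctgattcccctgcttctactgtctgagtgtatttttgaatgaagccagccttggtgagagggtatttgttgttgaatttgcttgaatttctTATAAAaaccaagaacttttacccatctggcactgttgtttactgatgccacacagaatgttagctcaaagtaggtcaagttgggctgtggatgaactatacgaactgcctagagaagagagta
Cyp3a41a, chr5:145720137-145720386, reverse strand: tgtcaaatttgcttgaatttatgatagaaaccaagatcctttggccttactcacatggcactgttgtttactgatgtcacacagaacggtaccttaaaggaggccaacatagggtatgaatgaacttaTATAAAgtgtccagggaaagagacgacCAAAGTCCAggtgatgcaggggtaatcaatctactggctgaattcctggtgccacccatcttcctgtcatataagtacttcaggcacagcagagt
Cyp2d10, chr15:82407196-82407445, reverse strand: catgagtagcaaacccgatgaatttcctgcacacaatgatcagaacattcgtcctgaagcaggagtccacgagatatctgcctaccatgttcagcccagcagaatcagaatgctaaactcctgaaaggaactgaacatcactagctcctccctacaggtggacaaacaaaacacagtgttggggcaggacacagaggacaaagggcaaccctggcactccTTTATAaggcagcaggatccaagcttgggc
Cyp1a1, chr9:57687678-57687927, forward strand: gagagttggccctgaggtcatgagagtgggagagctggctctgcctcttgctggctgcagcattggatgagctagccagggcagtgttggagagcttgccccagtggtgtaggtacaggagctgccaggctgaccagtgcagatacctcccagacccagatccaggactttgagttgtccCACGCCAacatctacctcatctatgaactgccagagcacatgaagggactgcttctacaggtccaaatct
Cyp1b1, chr17:79715062-79715311, reverse strand: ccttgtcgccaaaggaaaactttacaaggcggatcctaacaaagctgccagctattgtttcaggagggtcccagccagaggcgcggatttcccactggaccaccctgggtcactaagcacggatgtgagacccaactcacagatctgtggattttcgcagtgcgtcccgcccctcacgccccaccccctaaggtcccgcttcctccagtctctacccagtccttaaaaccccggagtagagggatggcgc

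Cyp3a41a differed from Cyp3a41b at 1 of these 250 bases, Cyp2b13 from Cyp2b9 at 2 and Cyp2c40 from Cyp2c69 at 3, when the sequences were laid side by side without gaps. Such copies bear on every count below, because reads from repeated sequence cannot be placed with certainty. Of the 31-base words sampled within 2 kb of each start, a median of 13.6% in P450 genes occurred more than once in the genome, against 4.02% in all genes. Across gene bodies the medians were 23.6% and 6.76%. The clusters ranged from 7.42% in Cyp1a and 16.0% in Cyp4f to 43.2% in Cyp4a/b/x, 45.0% in Cyp2c and 49.8% in Cyp3a. Shares among the 39 members with mostly unique starts (at most 10% repeated words) or the 24 with mostly unique bodies are given beside some of the counts.

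Most P450 starts carried none of the SWI/SNF, Ctcf and cohesin summits that were listed at most gene starts in these cells. Within 2 kb of the start, Arid1a was listed at 9 of 81 members (11.1%, against 37% of all genes), Brg1 at 5 (6.17%, against 41.4%), Ctcf at 8 (9.88%, against 44%) and Rad21 at 6 (7.41%, against 52.4%). At least 1 of the 4 factors was listed at 15 members (18.5%) against 67.6% of all genes, and no summit of any of the 8 lists at 37 members (45.7%) against 16.9%. The 95% exact (Clopper-Pearson) intervals of the members' shares, which like all intervals below cover counting error only, reached 20.05% for Arid1a, 13.8% for Brg1, 18.5% for Ctcf and 15.4% for Rad21. The lower share was also seen among the 39 members with unique starts. There Arid1a was listed at 7 (17.9%, against 41.0% of genes with unique starts) and Brg1 at 4 (10.3%, against 45.8%). Ctcf was listed at 6 (15.4%, against 48.4%) and Rad21 at 5 (12.8%, against 58.7%). The counts of 15 members with a factor and of 37 without any summit were not repeated for unique starts. Among starts with fewer than 10 CG dinucleotides the gap was smaller. There Brg1 was listed at 2 of 75 members (2.67%, interval up to 9.30%) against 18.7% of such genes, while the interval of the Arid1a share (6 of 75, or 8%, up to 16.6%) held the 16.5% of such genes. The part that CG content and repeated sequence had in these shares was not tested beyond these values.

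**Figure D1:**
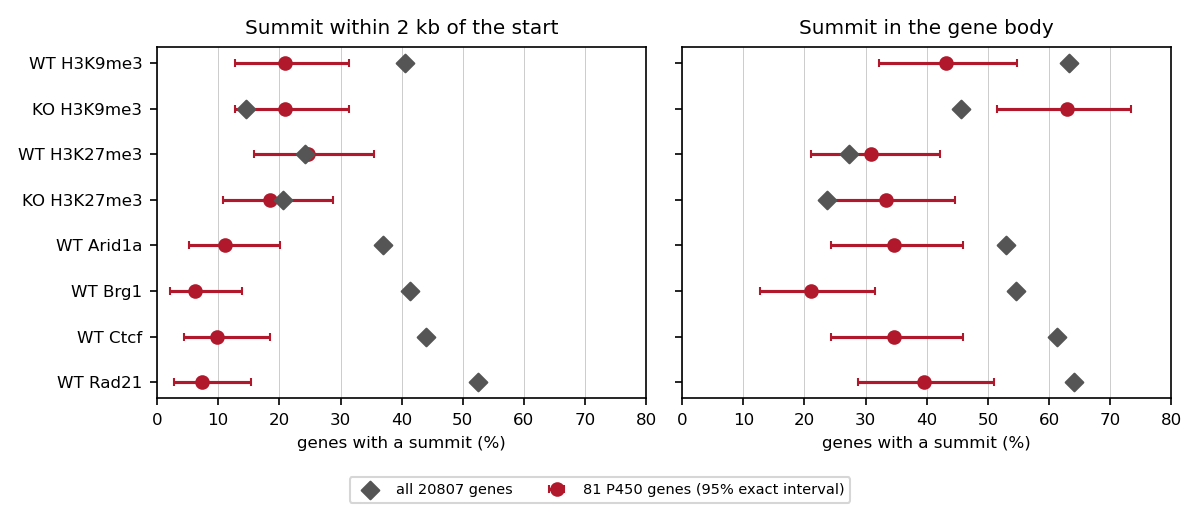
Share of the 81 P450 genes (red circles, bars are 95% exact intervals) and of all 20807 autosomal protein-coding genes (grey diamonds) with at least 1 summit of each list within 2 kb of the start (left) or in the gene body (right), in percent. The 4 factors lie far below the share of all genes in both panels, H3K27me3 lies near or above it, and KO H3K9me3 lies above it in bodies when summits of all strengths are counted, but not at a strength of at least 3.

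The 37 members without any summit at the start included several well known drug- and fatty-acid-oxidizing enzymes, although others, such as Cyp1a1, Cyp1a2, Cyp2e1 and Cyp2c29, did have summits there. Cyp3a11 (chr5:145854426-145879964), the leading Cyp3a drug oxidase and a target of Pxr, had a single Brg1 summit in its body and nothing else. Cyp2a5 (chr7:26835305-26843548), the coumarin hydroxylase, had a single Rad21 summit in its body. Cyp4a10 (chr4:115518264-115533649) and Cyp4a14 (chr4:115486200-115496142), fatty acid hydroxylases induced through Ppara, had no summit of any list at the start or in the body. Cyp2j6 (chr4:96516138-96553661), which epoxidizes arachidonic acid, had a single Ctcf summit in its body. Cyp2b10 (chr7:25897620-25926624), the classic phenobarbital-induced gene, had no summit at its start but 10 WT and 8 KO H3K27me3 summits inside its body. An absent summit says only that no peak was called there in that library.

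Cyp1b1 and Cyp2u1 were the 2 members at whose starts all 4 factors were listed (2.47%, against 17.5% of all genes). Cyp1b1 (chr17:79701537-79715061), which is known to act mainly outside the liver on steroids and polycyclic hydrocarbons, had 2 summits each of Arid1a, Brg1, Ctcf and Rad21 within 2 kb of its start, with highest strengths of 3.33, 3.24, 30.1 and 10.8. Its body held 7 Arid1a and 5 Brg1 summits, the most of any member for both factors, and with 20 kb on either side it had 187 Arid1a summits per Mb against 21.7 per Mb on chromosome 17. Its promoter held 16 CG dinucleotides, and 2.73% of the words of its window were repeated. Cyp2u1 (chr3:131288441-131303227), a fatty acid hydroxylase, had 1 Arid1a and 1 Brg1 summit (strengths 2.08 and 2.51) and 2 each of Ctcf and Rad21 at its start (highest 2.14 and 3.56). A much stronger Ctcf summit, of 59.6, lay in a Cyp2u1 intron at chr3:131300112. Both genes stand outside the clusters.

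Arid1a and Brg1 were listed together at 3 starts (3.70%, against 27.8% of all genes), the Cyp4v3 start being the only one besides these 2. Cyp4v3 (chr8:45304944-45333216), a fatty acid hydroxylase, had 2 Arid1a summits (highest 3.33) and 1 Brg1 summit (2.003) at its start. The strongest Arid1a summit at any member start, 4.37, lay in an intron of Cyp2d22 (chr15:82370527-82380260), a drug oxidase, without Brg1 at the start. A strength of 3.33 was shared by Cyp3a59, Cyp4v3 and Cyp1b1. The strongest Brg1 summit, 3.80, lay 429 bases inside Cyp4f13 (chr17:32924688-32947402), a member of the subfamily known for leukotriene and fatty acid hydroxylation, where no Arid1a was listed.

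Ctcf and Rad21 were listed together at 5 starts (6.17%, against 36.8% of all genes), those of Cyp2u1, Cyp2w1, Cyp2s1, Cyp1a1 and Cyp1b1. At Cyp1a1 (chr9:57687928-57703824), the Ahr target that oxidizes polycyclic hydrocarbons, the higher of 2 Ctcf summits had a strength of 12.9. It lay 329 bases downstream of the outermost annotated start, and Rad21 was listed at 1.56. At Cyp2s1 (chr7:25802475-25816913), expressed mainly in epithelia outside the liver, the Ctcf summit had a strength of 3.25 and the higher of 2 Rad21 summits 2.63. Cyp2w1 (chr5:139352617-139357033), known from fetal gut and tumours, had Ctcf at 1.61 and Rad21 at 4.85. Apart from Cyp1b1 and Cyp1a1, no Ctcf summit at a member start exceeded 3.25, which is below the median of 4.02 over the whole Ctcf list.

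**Figure D2:**
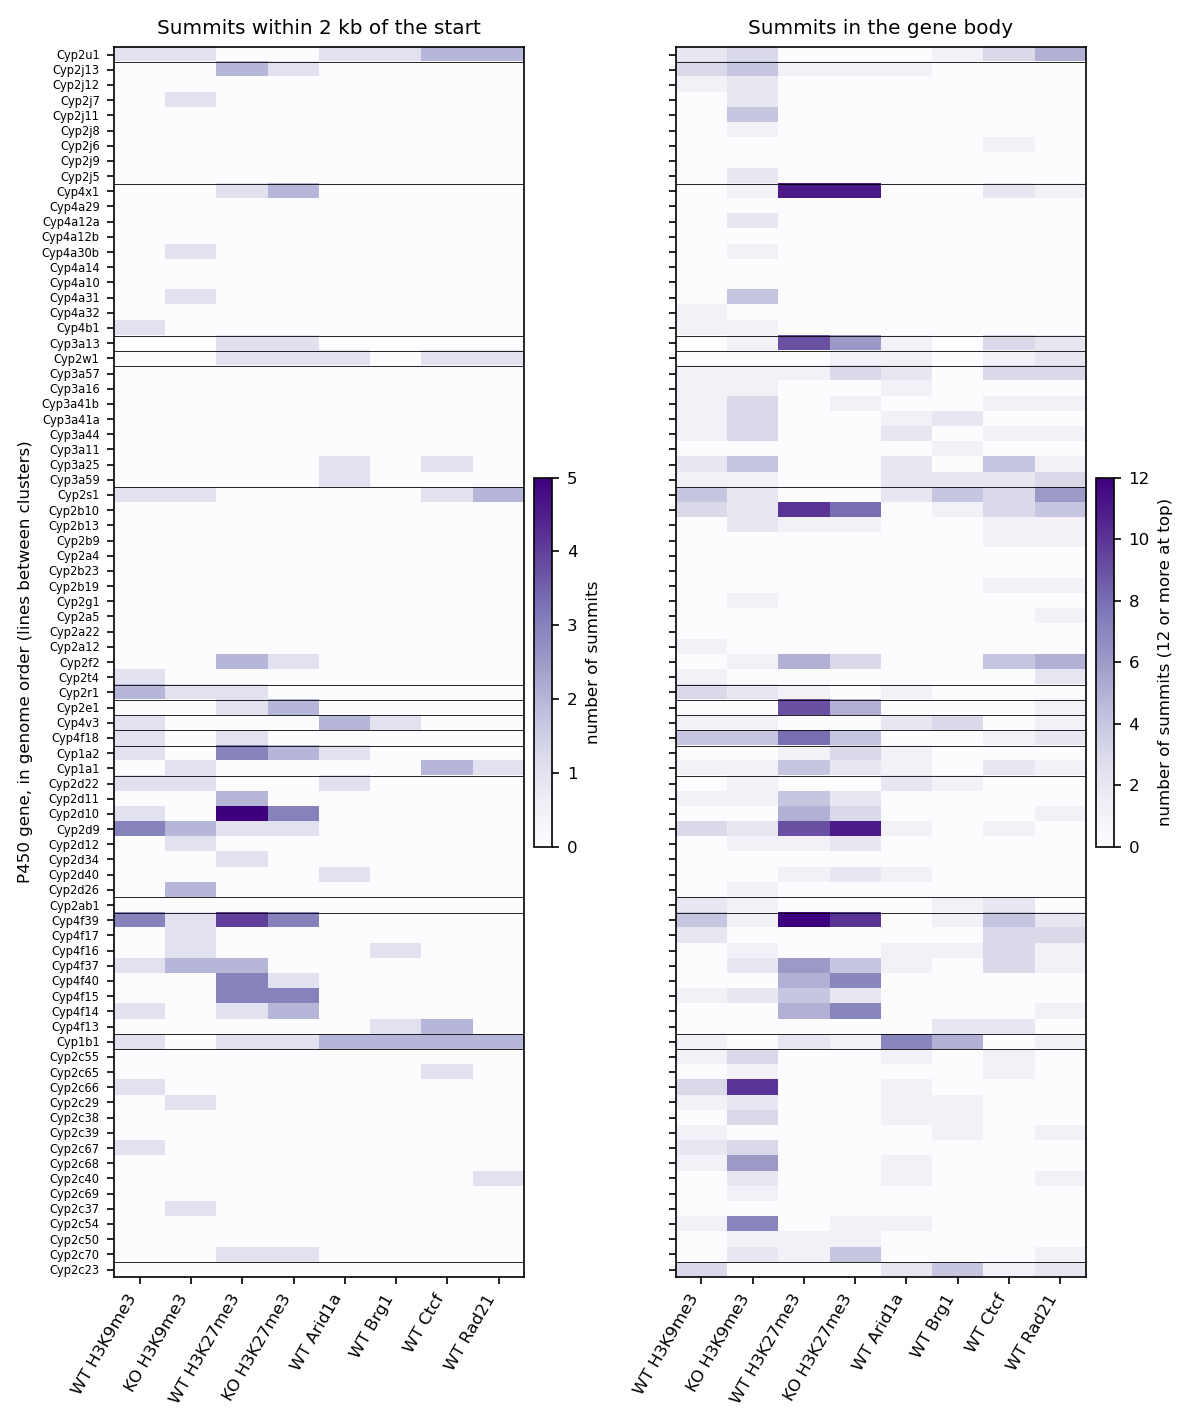
Number of summits of each of the 8 lists within 2 kb of the start (left) and in the body (right) of every P450 gene, in genome order, with lines between clusters. Darker cells hold more summits. Most Cyp2j, Cyp4a, Cyp3a and Cyp2a/b genes are blank at their starts, and the Cyp2c genes are mixed. Several Cyp2d and Cyp4f genes, Cyp2e1, Cyp1a2 and Cyp4x1 carry H3K27me3 there.

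Next, the bodies were counted. A longer body is more likely to hold a summit. The median body was 23.2 kb in members against 17.6 kb in all genes, but the longest was 73.5 kb against 4435 kb. The part of length in the shares was not tested. Arid1a was listed in 28 of 81 bodies (34.6%, against 53% of all genes), Brg1 in 17 (20.99%, against 54.6%), Ctcf in 28 (34.6%, against 61.3%) and Rad21 in 32 (39.5%, against 64%). Over all bases of the member bodies this amounted to 0.202 Arid1a, 0.154 Brg1, 0.279 Ctcf and 0.289 Rad21 summits per 10 kb, against 0.428, 0.490, 0.498 and 0.558 over all gene bodies. Among the 24 unique bodies the shares were 37.5% for Arid1a (9 members, against 57.5% of genes with unique bodies), 29.2% for Brg1 (7, against 59.7%), 45.8% for Ctcf (11, against 67.3%) and 58.3% for Rad21 (14, against 71.2%). In these 24 bodies the intervals of the Arid1a and Rad21 shares (up to 59.4% and 77.9%) held the share of all such genes, so a lower share of these 2 factors could not be shown there.

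Seen over the clusters and single genes with 20 kb on either side, all 4 factors were listed less densely than over the autosomes. Arid1a had 17.6 summits per Mb in these windows against 28.5 over all autosomes, Brg1 17.2 against 33.0, Ctcf 28.8 against 36.2, and Rad21 29.4 against 40.6. Without the 20 kb the ratios to the autosomes fell from 0.616 to 0.451 for Arid1a, from 0.523 to 0.346 for Brg1, from 0.794 to 0.576 for Ctcf and from 0.724 to 0.487 for Rad21. The Cyp2c cluster, with 14 genes known for drug and arachidonic acid oxidation and 1220 kb long, held 9 Arid1a, 9 Brg1, 7 Ctcf and 8 Rad21 summits, and its Ctcf density of 5.74 per Mb compared with 54.5 per Mb on chromosome 19. The Cyp2j cluster held 2 Arid1a, 1 Brg1, 5 Ctcf and 4 Rad21 summits in 677 kb. The Cyp4f cluster, on the contrary, held 39 Ctcf summits, or 72.9 per Mb against 38.8 on chromosome 17, and 16.0% of its words were repeated against 45.0% in Cyp2c.

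Where Ctcf and Rad21 did occur in the windows, the share lying together did not differ from that of the autosomes beyond counting error. A Ctcf summit lay within 1 kb of 98 of 186 Rad21 summits (52.7%, Wilson interval 45.5 to 59.7%), against 51.7% over the autosomes. Arid1a lay within 1 kb of 32 of 109 Brg1 summits (29.4%, 21.6 to 38.5%) against 27.6%. The strongest Ctcf summit near any member (80.8) lay at chr5:139364320, outside Cyp2w1. The strongest of any P450 cluster was at chr7:27159991 (strength 77.2), in an intron of the neighbouring gene Egln2 and 6277 bases from the Cyp2t4 start, and the strongest Rad21 summit of that cluster (39.1) lay beside it at chr7:27160017. The Cyp2d cluster had its strongest Ctcf summit (70.5) at chr15:82354460, outside Cyp2d22. The Cyp4a/b/x cluster had its strongest Ctcf summit (56.8) at chr4:115101859 with the strongest Rad21 summit (30.2) at chr4:115101835, next to Cyp4x1. The Cyp4f cluster had its strongest Ctcf and Rad21 summits (52.6 and 34.0) in an exon of Cyp4f37 at chr17:32635253 and chr17:32635265. The highest Ctcf summits of the Cyp2c and Cyp3a clusters were weak in comparison, 7.91 at chr19:39930363 and 9.56 in an intron of Cyp3a57 at chr5:145365110.

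An exact match to the Ctcf core consensus lay within 50 bases of 11 of the 182 Ctcf summits in these windows (6.04%). Over all autosomal Ctcf summits the share was 5.55%. Only exact matches to this fixed pattern of letters were counted. A summit without a match therefore need not lack a Ctcf motif, and the share of summits with any such motif was not measured. The windows of 3 of the 11 summits are shown from the mm10 reference, with the match in capitals. They were chosen as the Ctcf site at the Cyp1b1 start, the strongest Ctcf site of any cluster and the site inside the factor-poor Cyp2j cluster.
Cyp1b1 start, chr17:79715693-79715793, forward strand: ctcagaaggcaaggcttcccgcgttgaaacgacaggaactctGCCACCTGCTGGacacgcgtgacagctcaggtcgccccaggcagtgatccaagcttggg
Cyp2t4 side of the Cyp2a/b/f/g/s/t cluster, chr7:27159941-27160041, forward strand: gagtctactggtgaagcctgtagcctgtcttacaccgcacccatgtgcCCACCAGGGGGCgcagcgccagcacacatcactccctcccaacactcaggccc
Cyp2j cluster, chr4:96274077-96274177, forward strand: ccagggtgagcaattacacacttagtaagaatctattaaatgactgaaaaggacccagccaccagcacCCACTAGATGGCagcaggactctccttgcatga

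The Cyp2j site (strength 13.5) lay outside genes and 37468 bases from the nearest coding start, that of Cyp2j7. The strongest Ctcf summit of the Cyp2j window (27.8) lay at its outer end, at chr4:96683685.

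H3K27me3 was listed at P450 starts about as often as at all gene starts, but very unevenly among the subfamilies. In WT cells 20 of 81 starts had a summit (24.7%, against 24.1% of all genes), and in KO cells 15 (18.5%, against 20.6%). In bodies, 25 members (30.9%, against 27.3%) had a summit in WT and 27 (33.3%, against 23.7%) in KO. Among the members with unique starts it was listed at 15 of 39 in WT (38.5%, 23.4 to 55.4%, against 26.0% of such genes) and 13 of 39 in KO (33.3%, 19.1 to 50.2%, against 22.4%), with intervals that held the share of the genes. Among the unique bodies it was listed in 12 of 24 in each genotype (50%, 29.1 to 70.9%), against 28.7% in WT and 24.9% in KO, so that the interval lay above both, in WT by a small margin. A strength of at least 5 was reached at 5 member starts in WT (6.17%, against 10.8%) and 4 in KO (4.94%, against 9.48%). The intervals of the ratio to all genes, 0.189 to 1.28 in WT and 0.144 to 1.28 in KO, held 1.

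Most of the H3K27me3 summits of all windows lay in those of the Cyp2d genes, debrisoquine-type drug oxidases, and of the Cyp4f genes, where the 20 kb on either side and other genes are counted too. The Cyp2d window held 117 WT and 101 KO H3K27me3 summits, or 252 and 218 per Mb against 45.2 and 39.8 per Mb on chromosome 15, although none was stronger than 6.16 in WT and 7.66 in KO. Cyp2d10 (chr15:82402846-82407195) had 5 WT and 3 KO summits at its start, with highest strengths of 5.58 and 4.14. Cyp2d9 (chr15:82433437-82456845), a male-specific steroid hydroxylase, had 1 in each genotype at the start (2.24 in WT, 1.92 in KO) and 9 WT and 11 KO summits in its body. Cyp2d11 (highest 4.08) and Cyp2d34 (1.67) had H3K27me3 at the start in WT only, while Cyp2d22, Cyp2d12, Cyp2d40 and Cyp2d26 had none there. In the Cyp4f window 82 WT and 51 KO summits were listed, 153 and 95.4 per Mb against 46.6 and 32.9 on chromosome 17. Of these genes Cyp4f39 (chr17:32452723-32493320) had 4 WT and 3 KO summits at the start and 18 WT and 10 KO in the body, and Cyp4f15, Cyp4f14 and Cyp4f40 had the mark at the start in both genotypes.

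**Figure D3:**
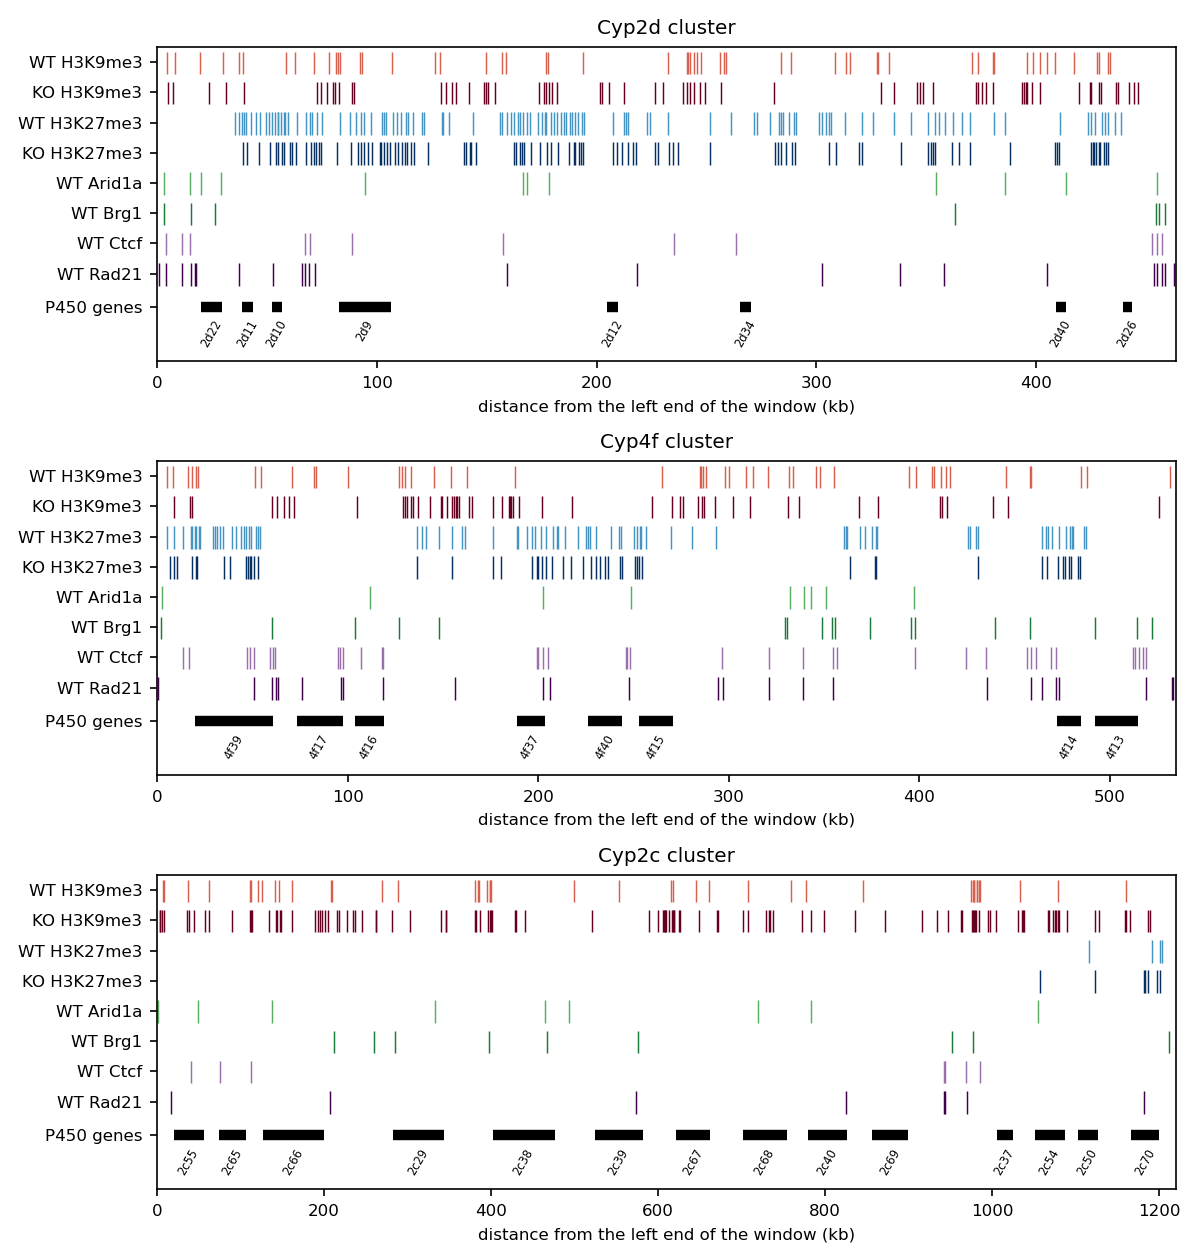
Positions of all summits of the 8 lists (ticks) over the Cyp2d, Cyp4f and Cyp2c clusters with 20 kb on either side, as distance from the left end of the window in kb, with P450 gene bodies as black bars. Strings of H3K27me3 ticks run through Cyp2d and parts of Cyp4f in both genotypes, while the Cyp2c window has 4 WT and 7 KO H3K27me3 summits and 43 WT and 110 KO H3K9me3 summits.

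Outside these 2 clusters the mark sat on single genes, and the strongest summit of each genotype in all windows lay at Cyp1a1. In an intron of Cyp1a1 the strengths reached 14.8 in WT (chr9:57696473) and 13.9 in KO (chr9:57697253), more than 2 kb from its outermost annotated start. The distance of these summits to any other transcript start of Cyp1a1 was not measured, so they may lie at a promoter in use. At the start of Cyp1a2 (chr9:57676937-57683703), the liver enzyme that oxidizes caffeine and aromatic amines, 3 WT summits reached 11.2 and 2 KO summits 2.69. At Cyp4x1 (chr4:115106323-115134281), expressed mainly in brain, the strength at the start was 10.3 in WT and 10.7 in KO. Its body held 11 summits in each genotype, out of 23 WT and 24 KO summits in the whole Cyp4a/b/x window, and no Cyp4a gene had any at its start or in its body. Cyp2w1 had 7.81 in WT and 8.27 in KO at its start, and Cyp1b1 had 5.47 and 4.05.

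Several liver and lung enzymes carried weaker H3K27me3 at the start in both genotypes. Cyp2e1 (chr7:140763739-140774987), the ethanol-oxidizing enzyme, had 1 WT and 2 KO summits at the start (highest 1.47 and 2.16) and 9 WT and 5 KO in its body. It had no Arid1a, Brg1 or Ctcf summit with 20 kb on either side. Cyp2f2 (chr7:27119909-27133660), which bioactivates naphthalene in the lung, had 2 WT and 1 KO summits at the start (highest 3.44 and 2.16). Cyp3a13 (chr5:137892932-137921619), the Cyp3a gene outside the cluster, had 1 in each genotype at the start (3.53 in WT, 2.75 in KO) and 9 WT and 6 KO in its body. Cyp2j13 (2.84 in WT, 3.38 in KO) and Cyp2c70 (1.78 and 1.92) were the only Cyp2j and Cyp2c genes with the mark at the start, and none of the 8 clustered Cyp3a genes had it.

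To compare the genotypes at starts, each member was placed in 1 of 4 states. H3K27me3 was at the start in both genotypes in 15 members (18.5%, against 17.9% of all genes), in WT only in 5 (6.17%, against 6.26%) and in KO only in 0 (against 2.69%), where 0 of 81 allows a share of up to 4.45% by the exact interval. The 5 WT-only genes were Cyp2r1, Cyp4f18, Cyp2d11, Cyp2d34 and Cyp4f37, with highest strengths between 1.67 and 4.08. With the same number of strongest summits taken from both lists, 2 members were WT only (against 4.77% of all genes) and 2 KO only (against 3.3%).

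Over the windows, H3K27me3 summits numbered 343 in WT and 267 in KO, so that 43.8% (39.8 to 47.8%) were from KO, against 44.0% over the autosomes. By window the KO share was 46.3% in Cyp2d (chromosome 46.8%), 38.3% in Cyp4f (41.3%), 41.8% in the Cyp2a/b/f/g/s/t cluster (43.7%) and 51.1% in Cyp4a/b/x (45.9%), and in these 4 windows the intervals held the value of the chromosome. In the clustered Cyp3a window, with only 1 WT and 7 KO summits, the share was 87.5% (47.3 to 99.7%), above the 45.8% of chromosome 5. Among the windows of genes outside the clusters, the largest gap in counts was in that of Cyp2e1. With 20 kb on either side it held 17 WT and 8 KO summits (32%, 14.9 to 53.5%, chromosome 7 at 43.7%). A KO summit lay within 1 kb of 57.1% of the WT summits (Wilson interval 51.9 to 62.3%, autosomes 54.6%), and a WT summit within 1 kb of 67.8% of the KO summits (62.0 to 73.1%, autosomes 68.3%).

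H3K9me3 was counted in the same way. In WT cells it was listed at 17 of 81 member starts (20.99%, against 40.5% of all genes) and in 35 bodies (43.2%, against 63.3%). The 40.5% of all gene starts was close to the share of Brg1 (41.4%). It was 52.9% at starts with at least 10 CG dinucleotides and 25.6% at those with fewer. Whether these WT summits mark heterochromatin was not tested, so a low share at members is not read as less heterochromatin. The interval at WT starts held the value of the genes when only unique starts (11 of 39, or 28.2%, up to 44.9%, against 43.7%) or only starts with fewer than 10 CG dinucleotides (12 of 75, or 16%, up to 26.3%, against 25.6%) were counted. In KO cells it was also listed at 17 starts (20.99%), with an interval (12.7 to 31.5%) that held the 14.5% of all genes, and in 51 bodies (63.0%, 51.5 to 73.4%) against 45.6%. The higher share in KO was not seen among stronger summits, and at a strength of at least 3 the direction turned, with KO H3K9me3 at 1 member start (1.23%, against 4.52% of all genes) and in 19 member bodies (23.5%, against 24.9%). At starts the ratio to all genes, 1.45, also fell below 1 within 1 kb (0.945), within 5 kb (0.959), with any transcript start (0.951) and with lists of equal size (0.824), and in bodies the higher share was gone when only the 24 unique ones were counted (11, or 45.8%, against 44.9%).

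By state, H3K9me3 was at the start in WT only in 10 members (12.3%, against 32.9% of all genes), in KO only in 10 (12.3%, against 6.87%) and in both genotypes in 7 (8.64%, against 7.63%). The KO-only genes were Cyp2j7, Cyp4a30b, Cyp4a31, Cyp1a1, Cyp2d12, Cyp2d26, Cyp4f17, Cyp4f16, Cyp2c29 and Cyp2c37, and the interval of their share (6.08 to 21.5%) held the value of all genes. When only summits with a strength of at least 3 were counted, a single member was KO only, Cyp2s1, against 2.91% of all genes. The strongest KO summits at member starts were those of Cyp2s1 (3.11), Cyp2c29 (chr19:39269405-39330713), a drug oxidase (2.91), and Cyp1a1 (2.79). The strongest WT summits at member starts were those of Cyp2r1 (chr7:114549682-114562972), the vitamin D 25-hydroxylase (5.59 in WT and 1.36 in KO), Cyp2d9 (4.60 and 1.88) and Cyp4f39 (4.13 and 1.87). Cyp4b1 (chr4:115624725-115647723), known from the lung, had a single weak WT summit (1.55).

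Counted over whole windows, KO H3K9me3 summits outnumbered WT ones at the large clusters, against the balance of the genome. All windows together held 347 WT and 520 KO summits, a KO share of 59.98% (56.6 to 63.3%) against 48.1% over the autosomes. The share was 71.9% in Cyp2c (43 WT and 110 KO, 64.1 to 78.9%, chromosome 19 at 45.1%), 73.8% in Cyp2j (11 and 31, 58.0 to 86.1%, chromosome 4 at 47.2%), 69.7% in Cyp4a/b/x (10 and 23, 51.3 to 84.4%), 62.6% in the Cyp2a/b/f/g/s/t cluster (52 and 87, 54.0 to 70.6%, chromosome 7 at 48.3%) and 60.4% in Cyp3a (65 and 99, 52.4 to 67.9%, chromosome 5 at 46.0%). In Cyp2d (56 and 69) and Cyp4f (48 and 55) the intervals held the value of the chromosome. The Cyp1a pair had 8 WT and 2 KO summits, and of the 10 single genes 3 had more summits in KO, 5 more in WT and 2 equal numbers.

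**Figure D4:**
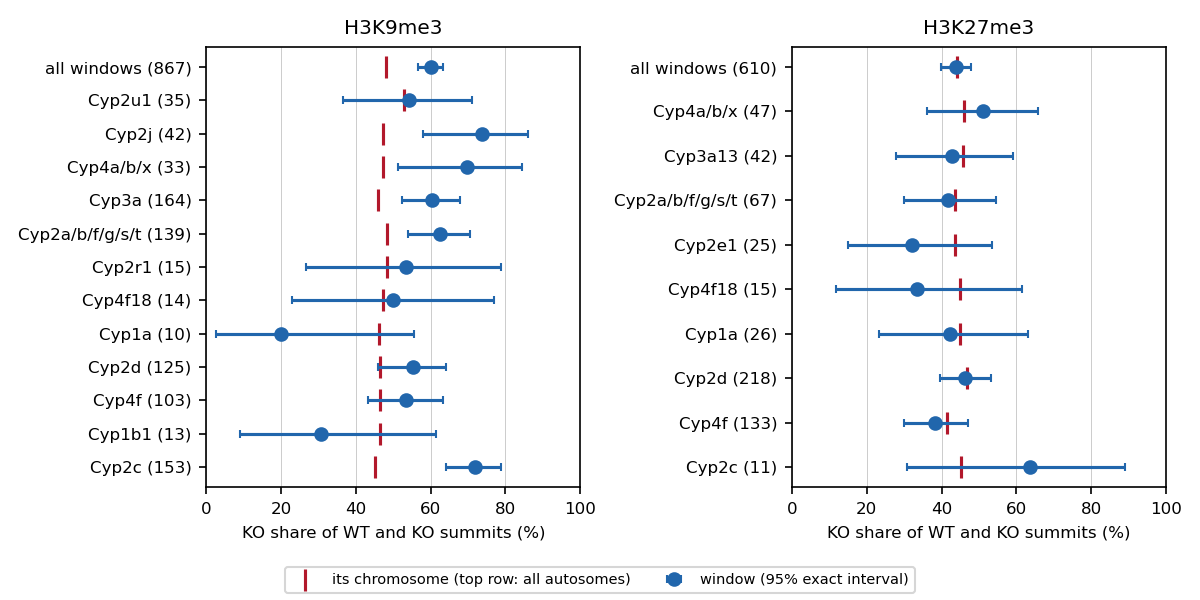
KO share of the WT and KO summits of H3K9me3 (left) and H3K27me3 (right) in each window with at least 10 summits, in percent, with 95% exact intervals (blue) and the share on the chromosome of the window, or over all autosomes in the top row (red ticks). Numbers in parentheses are the summits counted. For H3K9me3 the Cyp2c, Cyp2j, Cyp4a/b/x, Cyp2a/b/f/g/s/t and Cyp3a windows lie to the right of their chromosome, and for H3K27me3 all intervals drawn hold the value of the chromosome.

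The higher KO share over all windows was still seen with summits of at least 3 in strength (116 WT and 176 KO, autosomes 48.5%), and with only those more than 2 kb from any coding start (314 and 496, autosomes 49.4%). In Cyp2c 13 WT and 39 KO summits reached a strength of 3, whereas in Cyp4f the order was the opposite, 20 and 9. Strengths rank summits within their own list and are not compared between the genotypes. The highest H3K9me3 summits of the Cyp2c window were 6.89 in WT and 8.72 in KO, between Cyp2c69 and Cyp2c37 (chr19:39962176 and chr19:39964158), and those of the Cyp2d window 6.15 and 8.72, at chr15:82593109 and chr15:82593087. In Cyp2j the highest were 4.77 in WT and 7.45 in KO, the latter in an intron of Cyp2j13, and in Cyp4a/b/x 9.33 in WT and 3.31 in KO. They were 7.30 and 6.61 in Cyp3a, 7.30 and 6.95 in the Cyp2a/b/f/g/s/t cluster and 5.59 and 5.30 in Cyp4f. Of the 347 WT summits 43.2% (38.1 to 48.5%) had a KO summit within 1 kb, more than the 30.9% over the autosomes, while of the 520 KO summits 30.0% (26.2 to 34.1%) had a WT summit, against 33.4%. In Cyp2c, Cyp2c66 had 3 WT and 10 KO summits in its body, Cyp2c54 had 1 and 7, and Cyp2c68 had 1 and 6. Repeated words made up 26.5% of the Cyp2j, 43.2% of the Cyp4a/b/x and 45.0% of the Cyp2c window, the 3 clusters with the highest KO shares. They made up 49.8% of Cyp3a and 38.3% of the Cyp2a/b/f/g/s/t cluster, where the shares were lower. In Cyp2d (33.3%), Cyp4f (16.0%) and Cyp1a (7.42%) the interval held the value of the chromosome. The part of repeated words in the difference was not tested.

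The same counts were made at the starts of 20 partners and regulators of the P450 enzymes. Arid1a was listed at 8 of their starts (40.0%, against 37% of all genes), Brg1 at 9 (45.0%, against 41.4%), Ctcf at 13 (65.0%, against 44%) and Rad21 at 11 (55.0%, against 52.4%). Por, the reductase that all these enzymes need, had WT H3K9me3 (3.31) and Brg1 (2.005) at its start, and Ahr had Arid1a (2.70), Ctcf (4.65) and Rad21 (5.70). H3K27me3 was at 8 of the 20 starts in WT (40.0%, against 24.1%) and 6 in KO (30.0%, against 20.6%), and at 4 of them it was stronger in WT than at any start of P450 families 1 to 4. The strengths in WT and KO were 26.5 and 15.3 at Ppara, 24.4 and 17.4 at Foxa3, 20.4 and 18.1 at Cebpa, and 19.01 and 5.52 at Foxa1. At Hnf4a they were 2.55 and 5.52, and no H3K27me3 summit was listed at Nr1i2 or Nr1i3, which encode Pxr and Car.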

How the data were processed

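ChIP-seq peak lists of 8 samples were analysed, 1 library per group, out of 10 samples. The 2 inputs served in peak calling. The authors used Bowtie2 for alignment (build mm10), SAMtools and Picard to drop reads of low quality and PCR duplicates, and MACS2 with its default settings for peak calling, with input as control. Versions are not given in the sources used here. The deposited lists held 1 summit position per peak with a −log10 q-value, a unit read from the values, none of which lay under 1.30. It grows with depth, which is unknown, and serves only to rank summits within a list. Narrow-peak calling splits broad marks into strings of summits that are not independent.

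Genes were those of GENCODE M21. Summits were counted within 2 kb of the outermost start, in the body, and in clusters with 20 kb on both sides (neighbouring starts under 500 kb apart). Repeated sequence was the share of sampled 31-base words found more than once in the reference. Words were taken every 20 bases at starts and in clusters and every 100 in bodies. Motifs were searched on both strands. No test was possible with 1 library per group, so shares carry 95% Clopper-Pearson or Wilson intervals beside the share of all genes. Members, gene lists and the rule for named genes were chosen with earlier results of these data known. The named genes were 22 well known P450 genes, the 3 members with the highest start summit in each list, members with Arid1a and Brg1 or with H3K27me3 at the start, and the highest summits of each cluster. Alternatives changed the window, the strength threshold, the list sizes, the start definition, merging and added bases. Counting was checked on simulated lists. Python 3.11.15, NumPy 2.4.6, SciPy 1.17.1, Numba 0.67.0 and Matplotlib 3.10.9 were used.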

Additional observations from a re-analysis of the deposited data

How the results depend on the processing

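Ratios here are the members' share over the share of all genes, or window density over autosome density. Of 138 recomputed values, 112 stayed within the counting error of the reported value. In 17 of these the direction turned, each where the reported interval held no difference: KO H3K9me3 at starts (0.945 within 1 kb, 0.959 within 5 kb, 0.951 for any transcript start), WT H3K27me3 at starts (0.731 to 0.904), KO H3K27me3 at starts (1.02), the KO share of H3K27me3 in windows (up to 1.92 percentage points above the autosomes, with summits merged within 3 kb), and 3 counts of H3K27me3 positions and start states. KO H3K9me3 in bodies reversed to 0.943 at a strength of at least 3 and was 1.02 in unique bodies, and at starts it was 0.273 at 3, 0 at 5 and 0.824 with equal list sizes. KO-only H3K9me3 starts went to 0.424 at 3. At a strength of at least 5 the starts gave 0.871 for WT H3K9me3, 0.574 for WT H3K27me3, 0.521 for KO H3K27me3, 0 for Arid1a, 0 for Brg1 and 0.0966 for Ctcf, and windows gave 0 for Arid1a and 0.243 for Brg1. Bodies gave 0.233 for Arid1a and 0.204 for Brg1 at 3. Unique starts gave 1.48 for WT and 1.49 for KO H3K27me3, and unique bodies 1.74 and 2.01, and 0.819 for Rad21. Rad21 gave 0.319 within 5 kb of starts. Windows without added bases gave 0.451 for Arid1a, 0.346 for Brg1, 0.576 for Ctcf and 0.487 for Rad21. At higher strengths fewer summits remained by construction; for the others the cause was not tested. The settings for unique sequence, few CG dinucleotides, member bodies and distance from starts were chosen after seeing the data. No paired analysis was possible because each group was 1 library, and for the same reason no replicate could be left out.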

Other observations

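P450 genes of families 5 and above, which mostly make or degrade steroids, bile acids, vitamin D and retinoic acid, carried H3K27me3 at the start in a larger share than families 1 to 4 in these libraries, a difference that was not tested. Of 18 such genes, 11 had a summit in WT (61.1%) and 13 in KO (72.2%), against 24.1% and 20.6% of all genes. The strongest were Cyp24a1, which breaks down active vitamin D (26.4 in WT, 14.5 in KO), Cyp26a1, which breaks down retinoic acid (12.6 and 7.29), and Cyp17a1, of steroid synthesis (8.02 and 2.43). Cyp7a1, the first enzyme of bile acid synthesis, had no summit of any list at its start. Arid1a and Brg1 were listed at 3 of 18 starts each (16.7%, against 37% and 41.4%), and Rad21 at 10 (55.6%, against 52.4% of all genes).

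The 52 conjugation genes of the Ugt1, Ugt2, Sult and Gst families, which act on the products of P450 enzymes, had H3K27me3 at 5 starts in WT (9.62%, against 24.1% of all genes) and 7 in KO (13.5%, against 20.6%). Arid1a was listed at 11 of their starts (21.2%, against 37% of all genes), Brg1 at 8 (15.4%, against 41.4%), Ctcf at 13 (25.0%, against 44%) and Rad21 at 8 (15.4%, against 52.4%). These values are descriptions of 1 library per group. The Ugt1 genes share exons and lie close together, so 1 summit can be counted for several of them.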
